A study of Mus musculus with 8 samples.

Results

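Alpl, Ibsp and Runx2 are 3 genes of the osteoblast, the cell that makes bone. They were chosen by name, as the rows of the deposited gene table that carry exactly these names, and 1 row was found for each, 3 of the 49868 loci with a gene name among 76557 loci in all (Alpl is MSTRG.33314, Ibsp MSTRG.35700 and Runx2 MSTRG.20547). The libraries came from mesenchymal stem cells (MSc, the marrow stromal cells from which osteoblasts can be grown) grown from the thigh and shin bones of 8 mice, 1 culture per mouse. The 4 wildtype mice were C57Bl6/J. The 4 Has-tKO mice carried constitutive knockouts of Has1 and Has3 and a Has2 allele that a tamoxifen-activated Cre recombinase deletes in culture. The synthases Has1, Has2 and Has3 make hyaluronan, a large sugar polymer of the extracellular matrix. All 8 cultures, wildtype included, received 4-hydroxytamoxifen (48 h, in passage 2 and again in passage 3), so exposure to the drug does not distinguish the groups. Cre is described here only for the Has-tKO mice, so Cre activity, mouse line and loss of the synthases cannot be told apart. After 4 passages, RNA was taken on day 7 of osteogenic culture and sequenced after removal of ribosomal RNA. The sources used here do not give the promoter that drives Cre or the age of the mice. The study's title asks what the loss of hyaluronan synthesis does to osteogenic differentiation, and these 3 genes are markers of that process.

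Runx2 is the transcription factor that commits a mesenchymal cell to the osteoblast lineage. It binds DNA with its partner Cbfb and switches on genes of bone matrix. Alpl encodes tissue-nonspecific alkaline phosphatase, an enzyme anchored in the osteoblast membrane and on matrix vesicles. It cleaves pyrophosphate, which inhibits crystal growth, and so frees phosphate for mineral, and it is an early marker of osteoblasts in culture. Ibsp encodes bone sialoprotein, an acidic glycoprotein that osteoblasts secrete when mineral is first laid down and that binds hydroxyapatite and integrins.

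The sequences before the start sites of the 3 genes are shown because Alpl and Ibsp, which were both lower in Has-tKO, are textbook targets of Runx2. They are the 250 bases before each RefSeq start in build GRCm38.p6, which is not the GRCm39 named by the submitters, and all 3 genes were matched by symbol. The search covered 3 motifs on both strands: TGTGGT, the core of the Runx site (ACCACA on the other strand), the CCAAT box (ATTGG on the other strand) and the GC box GGGCGG (on the other strand CCGCCC). Capitals mark the matches.
Alpl, first start, chr4:137796385-137796634, minus strand: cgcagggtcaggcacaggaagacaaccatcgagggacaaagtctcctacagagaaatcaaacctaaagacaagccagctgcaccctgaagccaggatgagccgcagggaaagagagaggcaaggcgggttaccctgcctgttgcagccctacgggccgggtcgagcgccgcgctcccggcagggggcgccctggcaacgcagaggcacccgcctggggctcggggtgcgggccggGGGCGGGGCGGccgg
Alpl, second start, chr4:137766476-137766725, minus strand: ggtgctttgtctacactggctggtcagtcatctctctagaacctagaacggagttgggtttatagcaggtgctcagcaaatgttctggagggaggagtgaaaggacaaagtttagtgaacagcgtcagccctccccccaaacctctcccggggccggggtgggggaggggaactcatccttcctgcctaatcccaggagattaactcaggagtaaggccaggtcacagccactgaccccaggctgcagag
Ibsp, chr5:104299037-104299286, plus strand: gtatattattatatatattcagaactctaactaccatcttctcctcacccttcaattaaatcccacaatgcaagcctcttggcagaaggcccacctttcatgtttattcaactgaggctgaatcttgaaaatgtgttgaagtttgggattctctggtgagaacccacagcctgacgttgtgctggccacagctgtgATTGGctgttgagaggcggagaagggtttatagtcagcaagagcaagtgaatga
Runx2, chr17:44814628-44814877, minus strand: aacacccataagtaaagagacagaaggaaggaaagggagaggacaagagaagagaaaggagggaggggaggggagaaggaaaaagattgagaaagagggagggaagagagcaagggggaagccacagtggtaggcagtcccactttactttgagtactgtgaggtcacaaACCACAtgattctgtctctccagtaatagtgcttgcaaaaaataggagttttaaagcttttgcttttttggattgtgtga
The first Alpl window held 2 GC boxes that share 1 base, beginning 15 and 10 bases before the start, with a GC content of 68.4%. The window of the second Alpl start held no match, and no Runx core lay in either Alpl window or in that of Ibsp. In Ibsp there was 1 CCAAT box, on the minus strand and beginning 54 bases before the start, and in Runx2 1 Runx core, on the minus strand and beginning 80 bases before it. Of 32851 windows of this length, 14% held the Runx core, 33.8% a CCAAT box and 32.7% a GC box. A match to these letters is a description and not evidence of binding, and the windows end at the start site.

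Levels are the authors' deposited FPKM, which divides fragments by the length of the transcript and by the size of the library, and the sequencing depth is unknown. Of the 3 synthase genes Has3 alone carries a name in the table, at 0.235, 0.415, 0.466 and 0.394 FPKM in wildtype 1 to 4 and 0.663, 0.576, 0.621 and 0.150 FPKM in Has-tKO 1 to 4. The groups overlapped at these low levels, and since the deleted part of the gene is not stated here, this row does not check the genotypes. The library wildtype 1 stood apart. A single unnamed locus held 30.4% of its FPKM, against 14.2% to 18.6% in the other 7 libraries, and the ribosomal gene Rn18s 2.08%, against 0.997% to 1.5%. Named genes reached 1 FPKM in 8327 cases in wildtype 1 and in 9679 to 10357 cases elsewhere. Each result below is therefore given on the values as deposited, and again after division by median-ratio size factors, which were 0.684 for wildtype 1 and 0.990 to 1.11 for the others. Over the 9916 genes tested, the median log2 fold change (Has-tKO minus wildtype) was 0.16 without scaling and 0.01 with it. At an adjusted p under 0.05, 1.77% of them passed without scaling (176 genes, 1.58% higher and 0.192% lower) and 2.82% with it (280 genes, 1.73% higher and 1.09% lower). An unadjusted p under 0.05 was reached by 16.7% of them without scaling and 18.5% with it.

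**Figure D1:**
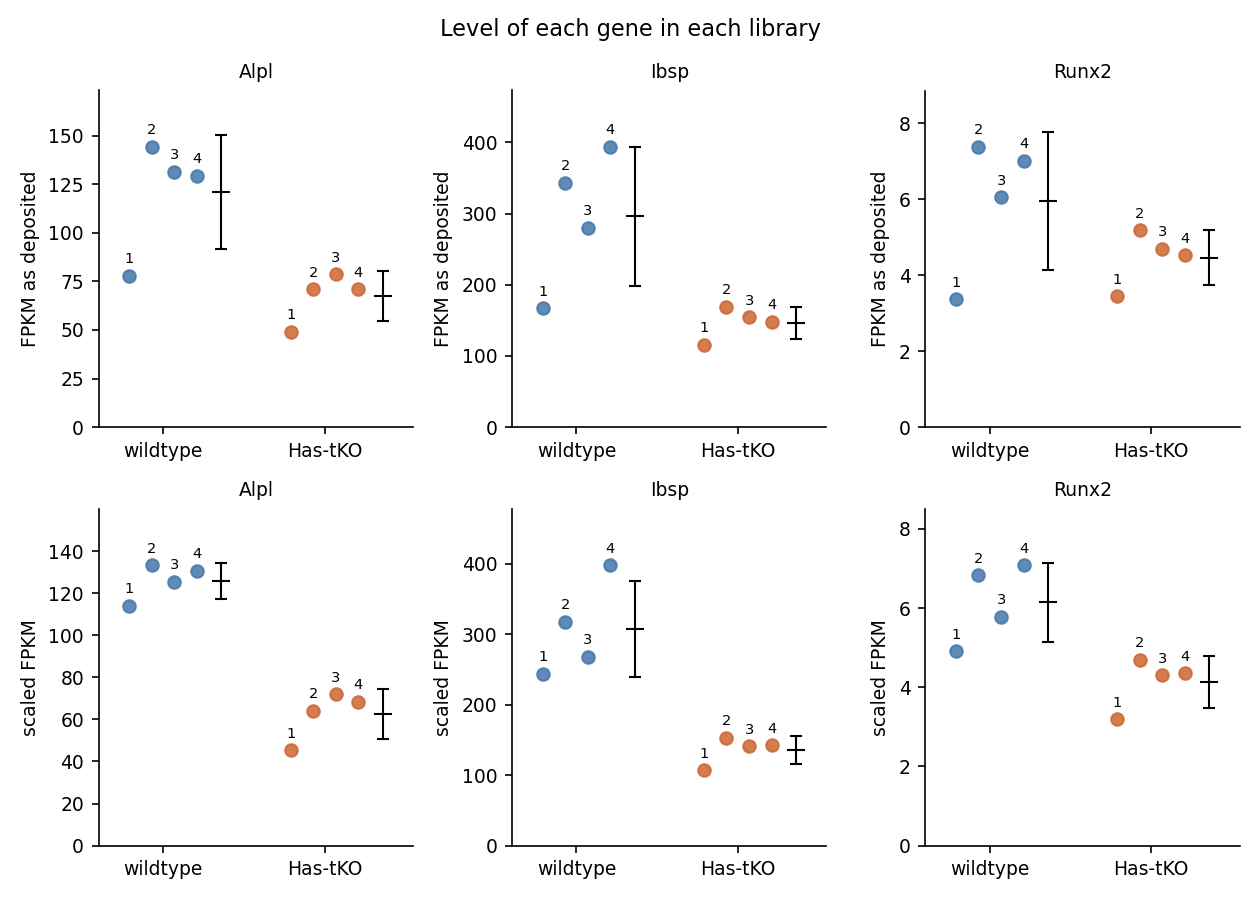
Level of Alpl, Ibsp and Runx2 in each library, with the deposited FPKM in the upper row and the FPKM after median-ratio scaling in the lower row. Each point is 1 library, labelled with its replicate number, and the bar beside each group is the mean ± SD of 4 libraries. As deposited, wildtype 1 lies within the Has-tKO range for Alpl and Ibsp and just below it for Runx2. After scaling each of the 4 Has-tKO libraries lies below each of the 4 wildtype libraries for all 3 genes, as for 5.76% of tested genes.

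Alpl, the phosphatase, was lower in each Has-tKO library than in wildtype 2, 3 and 4. The wildtype libraries 1 to 4 held 78.0, 144, 131 and 129 FPKM, and the Has-tKO libraries 1 to 4 held 49.0, 70.9, 78.7 and 71.0 FPKM. Thus 3 of 4 Has-tKO libraries lay below all wildtype libraries, and Has-tKO 3 lay just above wildtype 1. The means were 121 ± 29.3 and 67.4 ± 12.8 FPKM (SD, n = 4 each), so that the Has-tKO mean was 55.8% of the wildtype mean. The log2 fold change was -0.82 (SE 0.22) and did not pass (limma adjusted p = 0.0826, where 1.77% of all tested genes passed). The exact permutation test of the same log2 values gave p = 0.0571 (two-sided). After scaling, the wildtype libraries held 114, 133, 125 and 131 FPKM and the Has-tKO libraries 45.4, 64.1, 71.9 and 68.4 FPKM. The groups no longer overlapped, as was the case for 5.76% of tested genes in this direction and 7.18% in the other, and the spread of wildtype shrank from 24.3% to 6.81% of its mean. Alpl fell by 1.02 on the log2 scale in this fit (SE 0.15, limma adjusted p = 0.0154, where 2.82% of tested genes passed), from a scaled mean of 126 ± 8.57 to 62.4 ± 11.8 FPKM (SD, n = 4 each), or 49.6%.

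Ibsp, the matrix glycoprotein, was the highest of the 3 genes in every library. The wildtype libraries 1 to 4 held 167, 344, 280 and 394 FPKM, and the Has-tKO libraries 1 to 4 held 115, 169, 155 and 148 FPKM. Only Has-tKO 2 reached the level of wildtype 1, and the other 3 lay below all wildtype libraries. The means were 296 ± 97.9 and 147 ± 22.6 FPKM (SD, n = 4 each), a Has-tKO mean at 49.5% of wildtype. The log2 fold change of -0.95 (SE 0.25) did not pass (limma adjusted p = 0.0718), and the exact permutation test gave p = 0.0571 (two-sided). After scaling, the values were 244, 317, 268 and 398 FPKM in wildtype against 107, 153, 141 and 142 in Has-tKO. They did not overlap, as was the case for 5.76% of tested genes in this direction. In this fit Ibsp fell by 1.16 on the log2 scale (SE 0.18, limma adjusted p = 0.0177), from a scaled mean of 307 ± 68.0 to 136 ± 20.0 FPKM (SD, n = 4 each), or 44.3%. The spread among wildtype libraries stayed wider for Ibsp (22.2% of the mean after scaling) than for Alpl, with wildtype 4 the highest.

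Runx2, the lineage transcription factor, was the lowest of the 3 genes and differed least. The wildtype libraries 1 to 4 held 3.36, 7.39, 6.05 and 7.01 FPKM, and the Has-tKO libraries 1 to 4 held 3.45, 5.19, 4.70 and 4.53 FPKM. Wildtype 1 was the lowest library of all, so that no Has-tKO library lay below every wildtype library. The means were 5.95 ± 1.82 and 4.47 ± 0.731 FPKM (SD, n = 4 each), with a log2 fold change of -0.31 (95% interval -0.79 to 0.16, limma adjusted p = 0.489, exact permutation p = 0.257). After scaling, the wildtype libraries held 4.91, 6.83, 5.78 and 7.08 FPKM and the Has-tKO libraries 3.19, 4.69, 4.30 and 4.36 FPKM. These groups did not overlap either, as was the case for 5.76% of tested genes in this direction. The scaled means were 6.15 ± 0.999 and 4.14 ± 0.650 FPKM (SD, n = 4 each), or 67.3%. The log2 fold change of -0.48 (SE 0.14, 95% interval -0.79 to -0.16) did not pass over all genes (limma adjusted p = 0.110). In RefSeq the Runx2 locus overlaps Supt3, a gene for a subunit of a coactivator complex, which the table lists at 0.908 to 1.80 FPKM, and the antisense RNA Runx2os3, at 0 to 1.15 FPKM. The library type does not record the strand, so reads from bases that overlapping genes share cannot be assigned by strand. The overlap was read from whole gene spans, and shared exons were not examined. In bulk RNA, fewer osteoblasts in a culture and less RNA of these genes per osteoblast cannot be told apart.

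The calls for Alpl and Ibsp depended on the scaling, on other settings of the fit and on single libraries. The direction did not: both genes were lower in Has-tKO in each of the 27 limma fits tried beside the unscaled one. Alpl had an adjusted p between 0.00401 and 0.315 over these fits, Ibsp between 0.00236 and 0.347, and Runx2 between 0.0376 and 0.748. Of all tested genes, 2.37% passed with reference gene scaling, 2.82% with upper quartile scaling, 1.12% with a pseudocount of 0.1, 0.00735% with no filter on low values and 4.05% with a mean of at least 5 FPKM. The share was 1.48% with a block for replicate number, 0.403% with block and scaling, 3.61% without wildtype 1 and Has-tKO 4, and 2.71% without both and with scaling. In these and the scaled and weighted fits, 11 in all, Alpl and Ibsp each passed in 8 and missed the threshold with the other pseudocount and with the other filters on low values. With 1 library left out at a time and no scaling, Alpl passed only without wildtype 1 (-1.01, adjusted p = 0.0173), and so did Ibsp (-1.20, adjusted p = 0.0103). Of all tested genes 3.52%, 0.726%, 3.48% and 0.101% passed without wildtype 1 to 4, and 0.121%, 0.706%, 1.16% and 0.605% without Has-tKO 1 to 4. With 1 library left out and scaling recomputed, Alpl passed in 6 of 8 fits and Ibsp in 5 of 8. The background in these fits was 3.37%, 0.504%, 3.51% and 0.202% without wildtype 1 to 4, and 0.333%, 1.36%, 1.66% and 0.887% without Has-tKO 1 to 4. Alpl then missed the threshold without wildtype 2 (adjusted p = 0.0581) and without wildtype 4 (0.0652). Ibsp missed it without wildtype 2 (0.0604), without wildtype 4 (0.0619) and without Has-tKO 1 (0.0574). The log2 fold changes in these 8 scaled fits were -1.09 to -0.87 for Alpl and -1.26 to -1.03 for Ibsp. Runx2 passed in none of the 16 fits that left out 1 library (-0.57 to -0.21 on the log2 scale). It passed in 1 other fit, in which limma weighted each library by its own spread and gave wildtype 1 a weight of 0.101 (-0.51, adjusted p = 0.0376, where 7.72% of tested genes passed).

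**Figure D2:**
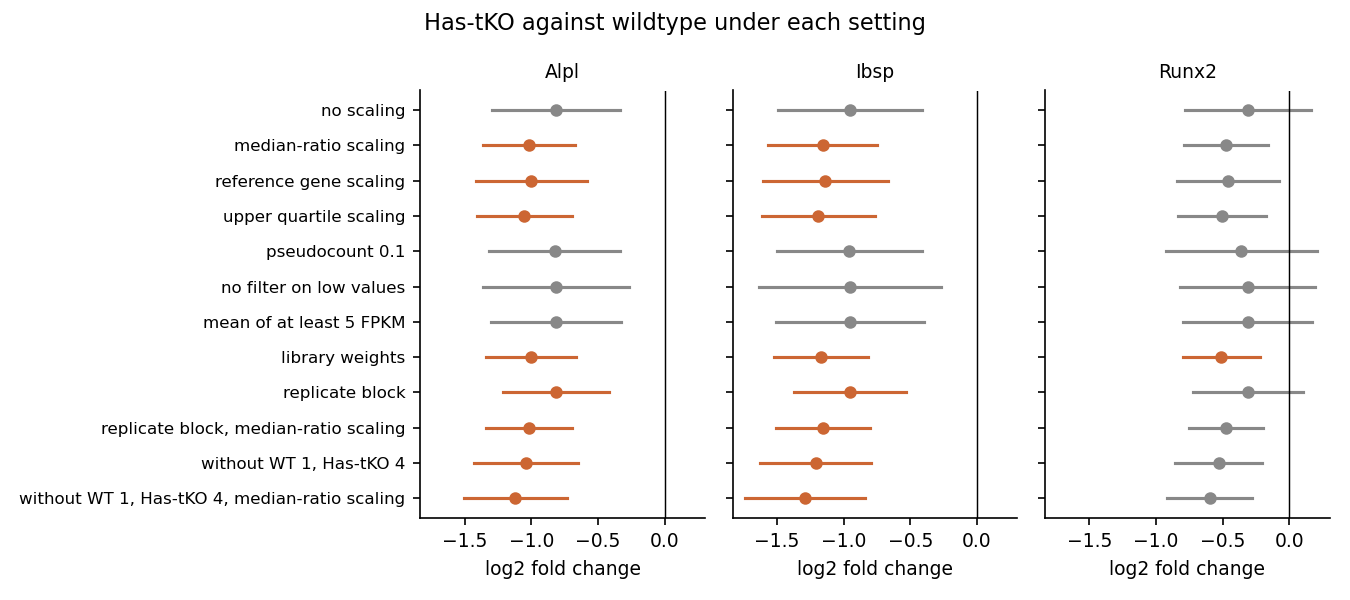
Log2 fold change of each gene (Has-tKO minus wildtype, points) with its 95% interval (lines) under 12 settings of the fit. Orange marks an adjusted p under 0.05 and grey the rest, and every point lies below 0.

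A ratio of 2 genes measured in the same library does not change with any factor that scales the whole library. It does not remove differences that vary from gene to gene, and wildtype 1 was not lower by 1 common factor. There Cbfb held 9.01 FPKM against 20.4 to 23.5 in wildtype 2 to 4, while Sparc held 1314 against 1134 to 1407. Ibsp per Runx2 was 49.7, 46.5, 46.3 and 56.2 in wildtype 1 to 4, and 33.4, 32.6, 32.9 and 32.7 in Has-tKO 1 to 4. The Has-tKO cultures were nearly identical in this ratio (32.9 ± 0.381, SD, n = 4) and all lay below the wildtype cultures (49.7 ± 4.61, SD, n = 4). The log2 difference was -0.59 (SE 0.07), with an exact permutation p = 0.0286 (two-sided, the smallest that 4 against 4 can give) and an adjusted p = 0.0429 over the 3 ratios tested. Alpl per Runx2 was 23.2, 19.5, 21.7 and 18.4 in wildtype and 14.2, 13.7, 16.7 and 15.7 in Has-tKO, again without overlap (log2 difference -0.46, SE 0.10, exact permutation p = 0.0286, adjusted 0.0429). Of all 9915 other tested genes, 0.323% had a ratio to Runx2 that was lower in all Has-tKO than in all wildtype libraries, which is 32 genes, Alpl and Ibsp among them, and 34.7% had one that was higher. The value of wildtype 1 lay within the range of the other wildtype libraries for Ibsp per Runx2 and above it for Alpl per Runx2. Alpl and Ibsp were thus lower relative to Runx2 transcript, which a ratio shows as unequal change and not as the absence of change in Runx2. Regulation by Runx2 was not tested.

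Ibsp per Alpl did not separate the genotypes. It was 2.14, 2.38, 2.13 and 3.05 in wildtype and 2.36, 2.38, 1.97 and 2.08 in Has-tKO, with a log2 difference of -0.13 (SE 0.14, exact permutation p = 0.429, adjusted 0.429). Of the other tested genes, 0.0303% had a ratio to Alpl that was lower in all Has-tKO libraries and 68.5% one that was higher. The highest value belonged to wildtype 4, and without it the difference was -0.02. A p above the threshold does not show that both genes changed by the same factor.

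**Figure D3:**
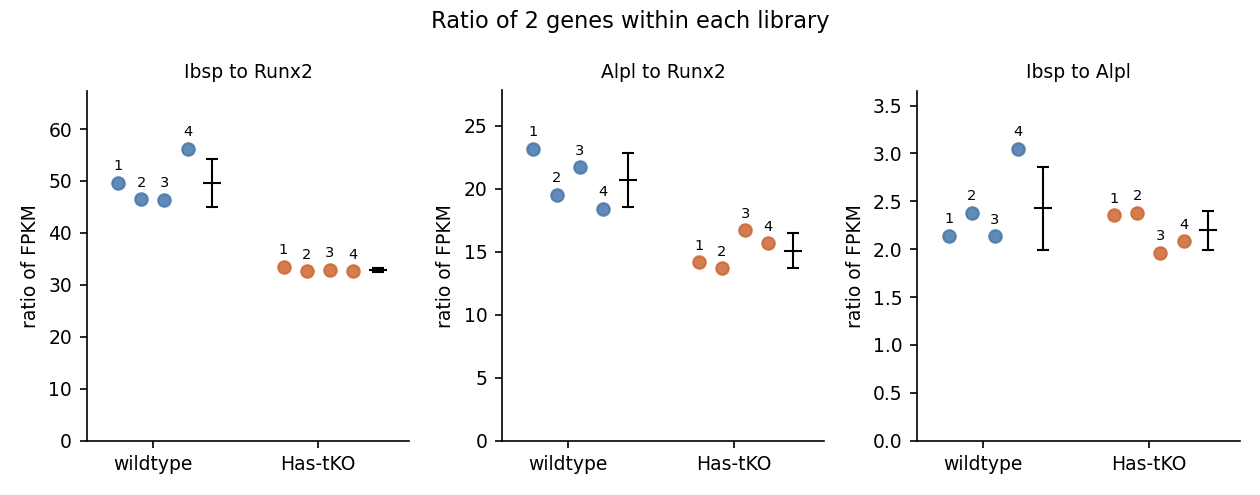
Ratio of the FPKM of 2 genes within each library for Ibsp to Runx2, Alpl to Runx2 and Ibsp to Alpl. Points are libraries with their replicate number and bars are mean ± SD of 4 libraries. The first 2 ratios separate the genotypes, at 32.6 to 33.4 against 46.3 to 56.2 and at 13.7 to 16.7 against 18.4 to 23.2, and the third overlaps.

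The place of each gene among the 9916 tested genes of its own library needs no scaling either. Ibsp ranked 42, 18, 22 and 17 from the top in wildtype 1 to 4, and 82, 47, 55 and 59 in Has-tKO 1 to 4. Alpl ranked 115, 62, 69 and 72 in wildtype and 155, 141 and 162 in Has-tKO 2 to 4, and Has-tKO 1 was lower still, at percentile 97.4. Runx2 ranked 3939, 2795, 3309 and 2699 in wildtype and 5602, 4056, 4349 and 4435 in Has-tKO. All 3 genes stood lower in every Has-tKO library than in every wildtype library, as did 6.1% of tested genes, while 6.54% stood higher (exact permutation p = 0.0286 for each, two-sided, the smallest possible). The highly ranked Ibsp and Alpl stayed among the most abundant transcripts in both genotypes, while Runx2 moved through the middle of the distribution, from a mean percentile of 67.9 to 53.5. Within each genotype, library 1 gave the lowest place for all 3 genes, and these libraries share only a number.

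**Figure D4:**
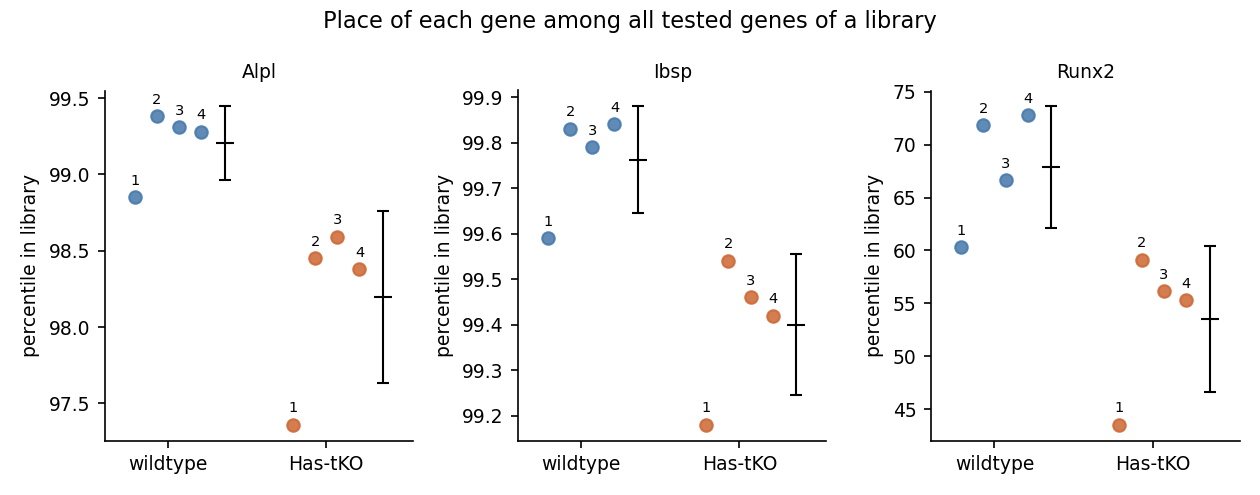
Percentile of each gene among the tested genes of the same library, where 100 is the most abundant gene. Points are libraries with their replicate number and bars are mean ± SD of 4 libraries, and the vertical axes differ between genes and do not begin at 0. Has-tKO libraries lie below wildtype libraries for all 3 genes, with Runx2 at 43.5 to 59.1 against 60.3 to 72.8.

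The rest of the osteoblast programme was read from 7 lists with 133 genes, of which 100 carried a name in the table and 75 passed the filter on low values. Without scaling 2 of the 75 rose and 1 fell, where 1.58% of all tested genes rose and 0.192% fell. After scaling 2 rose and 7 fell, Alpl and Ibsp among the 7, where 1.73% of all tested genes rose and 1.09% fell. Leaving out the 3 members, 5 of 72 fell after scaling. The median log2 fold change of the 75 genes was -0.01 without scaling and -0.20 with it, beside 0.16 and 0.01 for all tested genes. Ordered by log2 fold change without scaling, Smpd3 came first (-1.07), then the growth factor receptor Fgfr3 (-0.99), Ibsp, the matrix link protein Hapln1 (-0.83, adjusted p = 0.235) and Alpl. Col1a1, Spp1, Bglap, Sp7 and Phospho1, which would stand beside these genes in most accounts of osteoblasts, were not analysed here because no row carries their names.

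Among partners and regulators of Runx2, 14 of 29 genes were tested and none passed limma's test with or without scaling, where 1.77% and 2.82% of all genes did. An unadjusted p under 0.05 was reached by 1 of the 14 without scaling (16.7% of all tested genes) and by 3 with it (18.5% of all), Runx2 itself included. The binding partner Cbfb held 18.9 ± 6.71 FPKM in wildtype against 17.7 ± 1.88 in Has-tKO (SD, n = 4 each), a log2 fold change of -0.01 without scaling and -0.20 with it. Cebpb, an early factor of both fat and bone cells and the most abundant gene of the list, held 34.3 ± 7.28 and 57.5 ± 9.63 FPKM (0.74, limma adjusted p = 0.0767, with scaling 0.53, adjusted p = 0.299). Runx3, of the same family as Runx2 and a factor of cartilage and blood cells, stayed below the filter at 0.461 ± 0.117 and 0.614 ± 0.309 FPKM, and Runx1 was not analysed here. The list had a median of -0.02 without scaling and -0.21 with it.

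Among receptors and ligands that induce osteoblasts, 10 of 20 were tested. Of these 1 fell without scaling and 2 with it, where 0.192% and 1.09% of all tested genes fell. Fgfr3, which restrains growth of cartilage and is also made by osteoblasts, fell in both fits (21.6 ± 4.62 to 10.3 ± 1.67 FPKM, -0.99, limma adjusted p = 0.0265, with scaling -1.18, adjusted p = 0.00953). The Wnt co-receptor Lrp6 had -0.32 without scaling (adjusted p = 0.423) and fell only after it (-0.51, adjusted p = 0.0352), from a mean of 21.3 ± 4.65 to 16.6 ± 1.96 FPKM as deposited. With 1 library left out, Fgfr3 passed in 2 of 8 fits without scaling and 7 of 8 with it, and Lrp6 in 1 of 8 scaled fits. Fgfr1, the most abundant of the list, held 30.7 ± 3.72 and 25.8 ± 3.14 FPKM and passed in neither fit (-0.24, adjusted p = 0.470, with scaling -0.44, adjusted p = 0.112).

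Among osteoblast matrix proteins, 11 of 24 were tested. After scaling 2 fell, Ibsp and the fibrillar collagen Col24a1 (2.38 ± 0.506 to 1.64 ± 0.245 FPKM, -0.48, limma adjusted p = 0.0498). In that fit 1.09% of all tested genes fell. Without scaling none passed. An unadjusted p under 0.05 was reached by 6 of the 11 without scaling and 5 with it, Ibsp among them both times, beside 16.7% and 18.5% of all tested genes. Col24a1 passed in none of the 8 scaled fits that left out 1 library. Sparc, the collagen-binding osteonectin and the most abundant of the list, held 1314, 1342, 1134 and 1407 FPKM in wildtype against 780, 916, 1113 and 885 in Has-tKO. Its groups did not overlap even as deposited, as was the case for 1.53% of tested genes in this direction and 12.0% in the other, but it passed in neither fit (-0.50, adjusted p = 0.118, with scaling -0.70, adjusted p = 0.108). The list median was -0.23 without scaling and -0.44 with it.

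The neighbours of Ibsp on chromosome 5 are its own gene family, acidic phosphoproteins of bone and tooth. In RefSeq order these are Dspp, Dmp1, Ibsp, Mepe and Spp1. Dmp1, a marker of cells on the way to becoming osteocytes, held 3.94, 7.79, 5.24 and 4.92 FPKM in wildtype against 6.50, 12.7, 5.67 and 11.9 in Has-tKO. Its values overlapped and it did not pass (log2 fold change 0.62, SE 0.26, limma adjusted p = 0.261, with scaling 0.44, adjusted p = 0.375). Dspp, the dentin member, held 1.001 ± 0.218 and 1.90 ± 0.737 FPKM (0.51, adjusted p = 0.212, with scaling 0.40, adjusted p = 0.287), and was named after its values were seen. Mepe was listed at or below 0.142 FPKM in every library, and Spp1 was not analysed here. Dmp1 and Dspp thus had higher means in Has-tKO where Ibsp had a lower one, and the difference between these changes was not tested.

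Among genes of mineralization and pyrophosphate, 12 of 19 were tested, and changes went both ways. Without scaling 2 rose and 0 fell, where 1.58% of all tested genes rose and 0.192% fell. With scaling 2 rose and 2 fell, where 1.73% of all tested genes rose and 1.09% fell. The phosphate transporter Slc20a1 rose (4.74 ± 1.34 to 10.8 ± 2.14 FPKM, 1.06, limma adjusted p = 0.0268, with scaling 0.88, adjusted p = 0.0198). Fam20c, the kinase that phosphorylates secreted proteins of bone such as bone sialoprotein, rose too (5.12 ± 0.635 to 11 ± 1.08 FPKM, 0.97, adjusted p = 0.0152, with scaling 0.79, adjusted p = 0.00953). With 1 library left out, Slc20a1 passed in 3 of 8 fits without scaling and 5 of 8 with it, and Fam20c in 6 and 7 of 8. Smpd3, a sphingomyelinase without which bone mineralizes poorly, held 16.04 ± 5.23 FPKM in wildtype against 7.04 ± 2.42 in Has-tKO. It fell after scaling (-1.26, adjusted p = 0.0210, and in 4 of 8 such fits with 1 library left out) and did not pass without it (-1.07, adjusted p = 0.0580). Enpp1, which makes the pyrophosphate that alkaline phosphatase cleaves, held 8.36 ± 3.47 and 11.8 ± 5.06 FPKM and passed in neither fit (0.48, adjusted p = 0.482, with scaling 0.31, adjusted p = 0.578). Anxa2, a membrane-binding protein of matrix vesicles and the most abundant of the list over all 8 libraries (Alpl was higher in wildtype), held 105 ± 16.2 and 125 ± 4.99 FPKM without passing (0.27, adjusted p = 0.421). Ankh and Phospho1 were not analysed here.

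Alpl was the only alkaline phosphatase listed above 0: the intestinal and embryonic isozymes Alpi, Alppl2 and Akp3 were listed at 0 in all 8 libraries. Alkaline phosphatase needs zinc, loaded in the secretory pathway by Slc30a5, Slc30a6 and Slc30a7, and a lipid anchor. The Pig enzymes, Gpaa1 and Pgap1 build, attach or process this anchor. None of the 10 tested genes of these steps passed in either limma fit, with log2 fold changes after scaling between -0.20 and 0.18. An unadjusted p under 0.05 was reached by 0 of them in either fit, beside 16.7% and 18.5% of all tested genes. Among receptors and binding partners of bone sialoprotein, 5 of 7 were tested and none passed in either limma fit, with an unadjusted p under 0.05 for 1 without scaling and 2 with it (16.7% and 18.5% of all tested genes). The integrin subunit Itgb5, the most abundant of these, held 104 ± 11.7 and 94.4 ± 3.40 FPKM (-0.13, limma adjusted p = 0.689, with scaling -0.33, adjusted p = 0.192).

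Collagen processing enzymes, which osteoblasts need to fold and cross-link collagen, had 13 of 18 genes tested. Of these 0 fell without scaling and 1 with it, where 0.192% and 1.09% of all tested genes fell. After scaling Plod2 fell, the lysyl hydroxylase that prepares collagen for stable cross-links (30.4 ± 7.53 to 19.9 ± 4.33 FPKM, -0.77, limma adjusted p = 0.0311), and without scaling none passed (Plod2 -0.57, adjusted p = 0.223). The unadjusted p was under 0.05 for 4 of the 13 without scaling and 9 with it, beside 16.7% and 18.5% of all tested genes. Plod2 passed in 4 of 8 scaled fits with 1 library left out. P4hb, a subunit of prolyl hydroxylase and the most abundant of the list, held 290 ± 65.1 and 257 ± 10.5 FPKM and passed in neither fit (-0.14, adjusted p = 0.733, with scaling -0.34, adjusted p = 0.160). After scaling 12 of the 13 lay below the median of all tested genes, with a list median of -0.38.

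**Figure D5:**
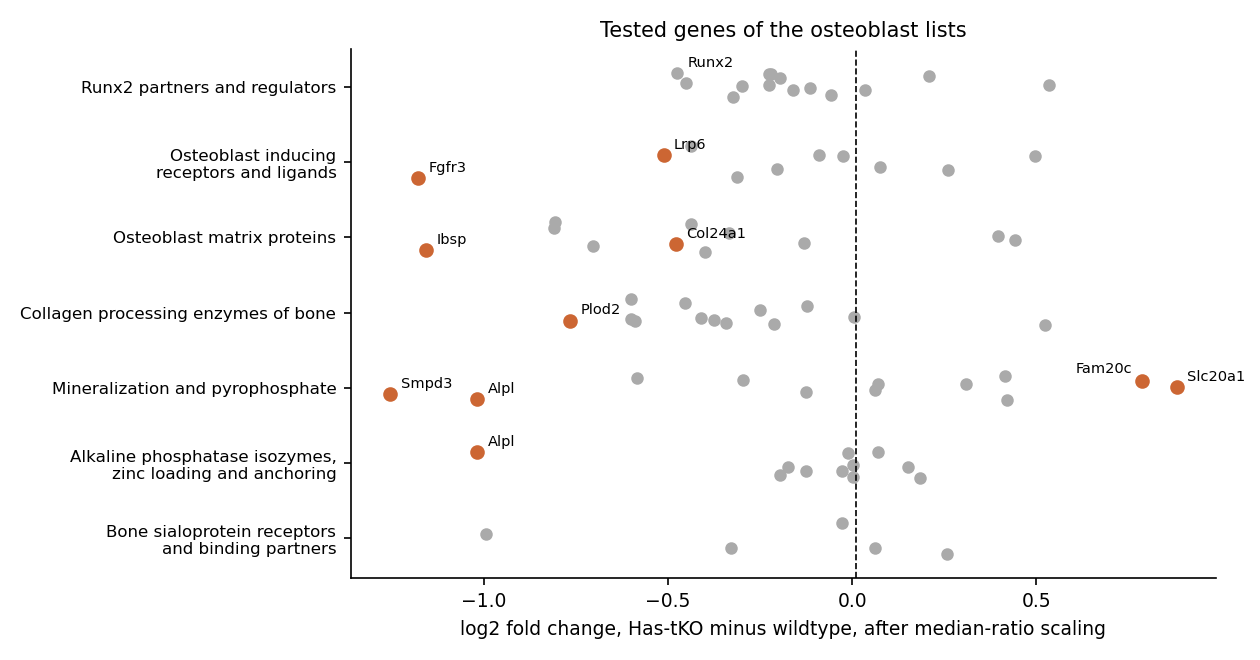
Log2 fold change after median-ratio scaling (horizontal axis) of the tested genes of the 7 osteoblast lists (rows, with vertical spread only to separate points). Orange points passed at an adjusted p under 0.05, grey points did not, and the dashed line is the median of all tested genes at 0.01. Alpl, Ibsp, Smpd3 and Fgfr3 lie at or below -1.02, while Slc20a1 and Fam20c lie on the right.

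The genes whose course over the 8 libraries was most like that of a member were found by the root mean square difference between centred log2(scaled FPKM + 1) profiles, among 8477 named genes. Nearest to Alpl was Ddit4l, an inhibitor of growth signalling through mTOR, at a difference of 0.10 on the log2 scale and with means of 17.1 and 9.15 FPKM. Next were the thyroid hormone deiodinase Dio2 (0.12), the corneal and bone proteoglycan Kera (0.15), the matrix protein Tgfbi (0.16) and the cysteine dioxygenase Cdo1 (0.16). Ibsp was in place 11 for Alpl (0.18). Nearest to Ibsp were Dio2 (0.15), the glycogen regulator Ppp1r3c (0.16), the channel Panx3 of osteoblasts and hypertrophic cartilage (0.16), Smpd3 (0.17) and then Alpl itself, in place 5 (0.18). The Runx2 profile lay in place 88 for Alpl and 86 for Ibsp. Seen from Runx2, many other profiles lay nearer, with Alpl in place 2010 and Ibsp in place 3809 of 8477. Nearest to Runx2 were Hoxa10, a patterning factor of the limb (0.06), the myosin Myo1d (0.06), Sncaip (0.09), the methyltransferase Setd7 (0.10) and Tmem64 (0.10). On unscaled values Ddit4l and Hoxa10 stayed first for Alpl and Runx2, and Panx3 came first for Ibsp (0.16). The profiles share libraries and library scale, and likeness of profile was used only to list genes.

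Markers of other cells moved with the genotype in the same libraries, and their part in the lower Alpl, Ibsp and Runx2 was not tested. Of 20 macrophage markers 17 carried a name, and none of these was below 0.1 FPKM in all libraries. Their summed level was 383, 393, 628 and 371 FPKM in wildtype 1 to 4 and 1002, 747, 599 and 976 FPKM in Has-tKO 1 to 4, so that the groups overlapped only through wildtype 3 and Has-tKO 3. After scaling the sums were 363 to 600 and 547 to 941 FPKM. Of 16 tested markers 4 rose (Cx3cr1, Mertk, Cd52 and Spi1), where 1.58% of all tested genes rose. With scaling 2 rose (Cx3cr1 and Mertk), where 1.73% of all tested genes rose. An unadjusted p under 0.05 was reached by all 16 without scaling and by 13 with it, beside 16.7% and 18.5% of all tested genes, and the list median was 0.93 and 0.76 on the log2 scale. When 1 library was left out, Cx3cr1 passed in 3 of 8 fits without scaling and 3 of 8 with it, Mertk in 2 and 4, Cd52 in 3 and 0, and Spi1 in 1 and 2.

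The list of cartilage markers had a median near the log2 fold change of Alpl, and the difference between them was not tested. Over 10 tested markers the median log2 fold change was -0.79 without scaling and -0.97 with it, and 10 and 9 of them lay below the median of all tested genes. Col9a1 and Col10a1, collagens of cartilage, fell in both fits, and the cartilage transcription factor Sox9 fell after scaling. Of all tested genes 0.192% fell without scaling and 1.09% with it. An unadjusted p under 0.05 was reached by 8 of 10 in each fit (16.7% and 18.5% of all tested genes). Leaving out 1 library, Col10a1 passed in 3 of 8 fits without scaling and 6 of 8 with it, Sox9 in 1 and 6, and Col9a1 in 1 and 1. The summed level overlapped between the groups (213 to 335 and 177 to 235 FPKM), and most of it was the cartilage collagen Col2a1, at 185 ± 70.2 and 159 ± 30.2 FPKM. Hapln1 stands in this list and in that of bone sialoprotein partners.

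Osteoclast markers had log2 fold changes of both signs, and none of 5 tested passed limma's test. An unadjusted p under 0.05 was reached by 3 without scaling and 2 with it, beside 16.7% and 18.5% of all tested genes. The phosphatase Acp5 held 31.1 ± 18.1 and 10.1 ± 4.63 FPKM (-1.47, adjusted p = 0.0653, with scaling -1.66, adjusted p = 0.0512), and the protease Mmp9 19.7 ± 11.3 and 7.22 ± 3.61 FPKM (-1.23, adjusted p = 0.131, with scaling -1.41, adjusted p = 0.0784). The fold changes of Acp5 and Mmp9 were larger than those of Alpl and Ibsp, with a wide spread in wildtype. The other tested markers Tnfrsf11a, Nfatc1 and Atp6v0d2 had 0.70, 0.25 and 0.13 without scaling. With scaling they had 0.52, 0.09 and -0.06. Tnfrsf11a held 6.18 ± 1.64 and 10.8 ± 3.61 FPKM (limma adjusted p = 0.156, with scaling 0.353). The list median was 0.13 without scaling and -0.06 with it, and the summed markers overlapped (38.7 to 114 and 35.4 to 56.4 FPKM). Summed fat cell markers were 24.2 to 58.5 and 71.9 to 91.5 FPKM, and most of this difference was Cd36, a fatty acid receptor that macrophages also make, at 25.2 ± 10.4 and 53.1 ± 9.73 FPKM. None of 4 tested fat markers passed (1 had an unadjusted p under 0.05 in each fit, beside 16.7% and 18.5% of all tested genes). The fat cell genes Adipoq, Fabp4, Plin1 and Cfd were below the filter, and Lep and Retn stayed below 0.1 FPKM in every library. Summed smooth muscle and pericyte markers were 99.7 to 182 FPKM in wildtype against 190 to 326 in Has-tKO. Most of this sum was Acta2, at 91.3 ± 31.4 and 167 ± 46.5 FPKM, which passed in neither limma fit (adjusted p = 0.1185, with scaling 0.1195). Tagln, an actin-binding protein, was the 1 of 7 that rose, in both fits (1.58% and 1.73% of all tested genes rose). With 1 library left out Tagln passed in 7 of 8 fits without scaling and 1 of 8 with it.

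Marrow stromal progenitor markers overlapped (222 to 443 and 352 to 416 FPKM), and none of 10 tested passed. In each fit 1 had an unadjusted p under 0.05, beside 16.7% of all tested genes without scaling and 18.5% with it. Summed osteocyte markers were 14.8 to 28.2 FPKM in wildtype against 29.6 to 36.7 in Has-tKO. Most of this sum was Pdpn (10.75 ± 3.34 and 14.99 ± 4.77 FPKM) and Dmp1, and the groups overlapped for each of them. Fgf23, of the same list, stayed below the filter and was not tested. It held 0, 0.398, 0.484 and 0.452 FPKM in wildtype against 0.884, 3.26, 0.951 and 3.19 in Has-tKO. Its groups did not overlap, as was the case for 12.0% of tested genes in this direction as deposited. None of 4 tested osteocyte markers passed (unadjusted p under 0.05 for 1 without scaling and 0 with it, beside 16.7% and 18.5% of all tested genes). The osteocyte gene Sost stayed below 0.1 FPKM in every library. Proliferation markers overlapped (10.2 to 30.8 and 26.7 to 30.1 FPKM), and endothelial markers summed to at most 3.20 FPKM.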

How the data were processed

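RNA sequencing of 8 libraries, each from the MSc of a separate mouse, was analysed as 4 wildtype against 4 Has-tKO. Per the file headers, the authors deposited FPKM values, 1 column per library and 1 row per locus, and each column was assigned by its library name. Per the submitters' processing notes, bcl2fastq, fastp, HISAT2, StringTie and DESeq2 were used with the builds GRCm39 and hg38, and the sources used here give no versions or options. Depth is unknown, so no counting error is given. A count test had been planned for counts, and for FPKM the planned limma test was used.

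The test took 9916 named loci that reached 1 FPKM in 4 or more libraries, as log2(FPKM + 1), with limma 3.58.1 in R 4.3.3 (intensity trend, genotype as the only term, two-sided, Benjamini-Hochberg over all tested loci, threshold 0.05). The pseudocount understates the change of low genes. Median-ratio factors came from 7435 named loci with at least 1 FPKM in all libraries. Ratios and percentiles were tested by exact permutation over libraries (Python 3.11.15, scipy 1.17.1). Named genes are the 3 members, from each list those that passed in either fit, the most abundant member and fixed relatives, and the 5 nearest profiles of each member. Hapln1, Dspp, the phosphatase isozymes, the zinc and anchor genes and the markers of other cells lie outside that rule and were chosen after their values were seen. Members and lists were chosen with earlier results of these data known, and percentiles and the joint omission of 2 libraries were added after the data were seen. Promoters came from RefSeq (GRCm38.p6).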

Additional observations from a re-analysis of the deposited data

How the results depend on the processing

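Over all alternatives run, Alpl, Ibsp and Runx2 kept a negative difference. Alpl and Ibsp, not called without scaling (-0.82 and -0.95), were called with median-ratio (-1.02 and -1.16), reference gene (11 genes, -1.0 and -1.14) and upper quartile scaling (-1.05 and -1.19), with library weights (-1.0 and -1.17, and -0.51 for Runx2), and without wildtype 1 and Has-tKO 4 (-1.04 and -1.21, and -1.12 and -1.29 with scaling). The cause was not tested. With 1 library left out, with or without scaling, they ranged from -1.09 to -0.67 for Alpl and from -1.26 to -0.79 for Ibsp. Percentiles within a library differed by -1.02 points for Alpl, -0.36 for Ibsp and -14.4 for Runx2.

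With the replicate block, Alpl (-0.82, adjusted p = 0.0489) and Ibsp (-0.95, adjusted p = 0.0342) passed, and with block and scaling too (-1.02 and -1.16). The numbers name different mice, and deviations of same-numbered libraries correlated at -0.121 to 0.311, so they were not treated as pairs. As differences within numbers, Ibsp to Runx2 (-0.59) and Alpl to Runx2 (-0.46) had adjusted p = 0.188, and 4 pairs cannot give an exact p below 0.125. With 1 library left out these ratios were -0.62 to -0.53 and -0.51 to -0.40, where no exact p below 0.0571 is possible.

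The number of genes called was 176, against 280 with median-ratio and 280 with upper quartile scaling, 111 with a pseudocount of 0.1, 2 without a filter (Cxcl2 and Hmga1b), 766 with library weights, 40 with block and scaling, 358 without wildtype 1 and Has-tKO 4 and 269 so with scaling. It was 10 to 349 with 1 library left out, without scaling 349, 72, 345 and 10 when wildtype 1 to 4 were left out and 12, 70, 115 and 60 when Has-tKO 1 to 4 were.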
